A study of Homo sapiens with 10 samples.

Results

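The genes of cholesterol and fatty acid synthesis were followed in A375, a human melanoma cell line that carries an activating BRAF mutation, after knockdown of PHF10 or MYC. The 31 genes were chosen by name: Ensembl gene IDs of the deposited tables whose current or older symbol is one of a fixed list of pathway members. All 31 were found among the 60623 gene IDs, and all 31 also passed the filter on low counts that left 18450 genes for testing. They fall into 6 mevalonate and isoprenoid enzymes, 11 enzymes that turn farnesyl groups into squalene and then cholesterol, 4 regulators and carriers, 8 enzymes of fatty acid synthesis and 2 exporters of cholesterol.

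PHF10 belongs to the nucleosome-remodelling complex PBAF, and the transcription factor MYC drives growth genes; the series asks how PHF10 takes part in activation by MYC. Poly(A)-selected RNA was sequenced in 10 libraries of 2 experiments, all harvested 72 h after transfection of small interfering RNA (siRNA) with a lipid reagent. In experiment 1 there were 4 libraries of PHF10 knockdown and 2 controls. In experiment 2 there were 2 libraries with the label MYC knockdown and 2 controls of its own. One field of the labels says that the controls received no treatment while the protocol describes a control siRNA, so what the controls share with the knockdown cells besides the line is not settled by the labels. No label says that replicates were separate cultures, and the p-values therefore reflect only how far these libraries scatter, a scatter that may be technical.

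Reads assigned to genes ranged over 20.5 to 38.4 M per library. PHF10 mRNA measured 16.1, 18.0, 15.05 and 15.7 CPM (read counts scaled to 1 M reads with TMM factors) in PHF10 knockdown libraries 1 to 4, against 40.1 and 36.6 CPM in the controls of experiment 1 (log2 fold change −1.24, SE 0.10, adjusted p = 0.00105). MYC mRNA stood at 16.7 and 13.3 CPM in the 2 labelled libraries of experiment 2, against 14.95 and 26.5 CPM in its controls (log2 fold change −0.46; adjusted p = 0.688). These MYC values overlap between the groups, so every direction drawn from experiment 2 rests on the label. In experiment 1 MYC mRNA was at 12.9, 9.69, 14.6 and 22.01 CPM in PHF10 knockdown libraries 1 to 4, against 20.2 and 32.1 CPM in controls, with overlap (log2 fold change −0.82, SE 0.33, adjusted p = 0.174). PHF10 mRNA was at 124 and 119 CPM in the labelled libraries of experiment 2, against 124 and 125 CPM in its controls, and those controls were above the ones of experiment 1 (log2 fold change 1.70, SE 0.12, adjusted p = 0.000122). Of the melanocytic markers, the lineage factor gene SOX10 measured 528 to 948 CPM and MITF 16.8 to 55.3 CPM over all libraries, whereas the pigment cell genes MLANA, TYR and PMEL stayed at 0 to 2.54 CPM. S100B, a calcium-binding protein of melanocytic and glial cells, was the only 1 called after PHF10 knockdown of the 4 of these 6 markers that could be tested (not MLANA or TYR), at 26.6, 33.3, 45.5 and 38.6 CPM in knockdown libraries, against 73.1 and 82.1 CPM in controls (log2 fold change −1.11, SE 0.18, adjusted p = 0.00924). SOX10 also lay below both controls in all 4 knockdown libraries (log2 fold change −0.38, SE 0.14, adjusted p = 0.142), and the part of these markers in the results on lipid genes was not tested. S100B lay below the controls in the labelled libraries too, without passing the threshold (11.03 and 12.02 CPM against 18.0 and 19.75 CPM, adjusted p = 0.188). Markers of blood cells (PTPRC, CD3E and CD14), endothelium (PECAM1 and CDH5) and hepatocytes (ALB) lay between 0 and 2.18 CPM, and the epithelial genes EPCAM, KRT5 and KRT14 between 0 and 11.3 CPM. The spread between replicates was far larger in experiment 1 than in experiment 2: a biological coefficient of variation of 26.7% against 3.39% when each was fitted alone, and 21.4% in the joint fit. PHF10 knockdown libraries 1 and 2 and control 1 of experiment 1 stood apart from the other 3 by high interferon-stimulated genes.

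Cells make cholesterol from acetyl-CoA through mevalonate, farnesyl diphosphate, squalene and lanosterol, and fatty acids from acetyl-CoA through malonyl-CoA. Most of these enzymes are switched on together by the sterol regulatory element-binding proteins, which the genes SREBF1 and SREBF2 encode: when membranes hold little cholesterol, their precursors leave the endoplasmic reticulum, are cut in the Golgi and enter the nucleus. INSIG1 holds the precursors back when sterols are plentiful, while the exporters ABCA1 and ABCG1 are induced by oxysterols through the liver X receptors. MYC is known to cooperate with these factors in some tumour cells, and growing melanoma cells need both products for new membranes.

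RefSeq promoter windows (GRCh38.p14; 250 bases before and 50 after a start) were matched by symbol for 27 of the 31 genes, in 37 windows; FDFT1, SQLE, FASN and ABCG1 had no entry in the table used. Both strands were searched for a core sterol regulatory element TCACCCCAC and its looser form TCACNCCAC, an E-box CACGTG, which is the site MYC and its partner MAX bind, and a CCAAT box, which reads ATTGG on the other strand. A match of the core is always also one of the looser form. CCAAT stood in 25 of the 37 windows (67.6%), against 34.6% of all 35116 windows, and in 21 of the 27 genes (77.8%), against 39.7% of genes. CACGTG stood in 5 of 37 windows (13.5%), against 7.26% of all windows. The core element stood in 1 window (2.7%), that of SREBF2, against 0.43% of all windows. These shares over all windows and genes were not restricted to genes expressed in these cells, as the members were. Windows of the same gene can overlap, as those of ACLY and SC5D do, and then count a shared match in each. A match is only a description of the letters, and no match in a window of 300 bases says nothing about a factor's binding elsewhere. The 5 promoters shown belong to the gene that fell after PHF10 knockdown (STARD4), the desaturase with the most negative fitted change of the fatty acid genes in both knockdowns (SCD), the regulator with the core element (SREBF2), and the 2 genes that differed between the controls (INSIG1 and HMGCS1). Each runs 5′ to 3′ in the direction of the gene and ends where the gene starts in GENCODE 29; capitals mark CCAAT boxes on either strand and, in SREBF2, the core element. They lie at chr5:111512591-111512785, minus strand (STARD4), chr10:100346983-100347123, plus strand (SCD), chr22:41832855-41833078, plus strand (SREBF2), chr7:155297628-155297775, plus strand (INSIG1) and chr5:43313513-43313662, minus strand (HMGCS1).
STARD4: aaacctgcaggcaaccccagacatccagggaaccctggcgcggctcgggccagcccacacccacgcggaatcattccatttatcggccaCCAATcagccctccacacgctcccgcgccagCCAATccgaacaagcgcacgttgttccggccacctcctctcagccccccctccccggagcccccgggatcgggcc
SCD: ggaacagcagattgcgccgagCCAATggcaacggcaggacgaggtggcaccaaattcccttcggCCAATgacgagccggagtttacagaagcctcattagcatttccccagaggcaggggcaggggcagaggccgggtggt
SREBF2: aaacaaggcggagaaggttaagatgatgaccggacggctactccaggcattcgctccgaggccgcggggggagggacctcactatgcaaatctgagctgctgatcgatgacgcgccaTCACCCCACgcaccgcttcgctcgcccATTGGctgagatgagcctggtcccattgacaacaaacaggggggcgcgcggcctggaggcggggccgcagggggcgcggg
INSIG1: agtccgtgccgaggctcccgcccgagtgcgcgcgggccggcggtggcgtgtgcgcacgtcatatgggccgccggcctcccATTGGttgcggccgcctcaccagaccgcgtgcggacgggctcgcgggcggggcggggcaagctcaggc
HMGCS1: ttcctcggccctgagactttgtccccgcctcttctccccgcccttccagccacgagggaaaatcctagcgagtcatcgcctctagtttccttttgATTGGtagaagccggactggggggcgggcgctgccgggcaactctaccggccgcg
STARD4 and SCD carry 2 CCAAT boxes each in the stretch shown, and the other 3 promoters carry 1 each. The 300-base window of HMGCS1 holds another, which begins at the first base after the stretch shown. The count of HMGCS1 in the whole window is therefore 2 as well. The window of INSIG1 also holds an E-box CACGTG, which begins 55 bases before the RefSeq start and lies beyond the stretch shown.

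A375 cells expressed the whole of both branches, at levels that differ widely between genes once length is taken into account. Per kilobase of annotated exon, FASN, the fatty acid synthase, had mean levels of 78.0, 84.1, 77.8 and 82.4 CPM in PHF10 knockdown, its controls, labelled MYC knockdown and its controls. ACLY, which makes acetyl-CoA from citrate, and SCD, which places the first double bond in a fatty acid, had 58.9, 54.4, 65.9 and 65.0 and 51.55, 83.5, 59.3 and 89.4 CPM per kilobase in the same groups. SCD was level with FASN in the controls of experiment 1 and above it in those of experiment 2, and both knockdown groups had FASN highest. In the sterol branch FDPS, the farnesyl diphosphate synthase, had 25.1, 31.6, 29.6 and 36.15 CPM per kilobase in those groups, and FDFT1, the squalene synthase, 19.1, 22.3, 19.9 and 23.2. The lowest of the 31 were ABCG1, with 0.663, 0.415, 0.255 and 0.385 CPM per kilobase, and CYP51A1, the lanosterol demethylase, with 0.738, 0.888, 0.802 and 0.883. The order thus runs from 3 fatty acid enzymes down to an exporter, with the regulators SREBF1 (26.6, 33.7, 21.6 and 29.3 CPM per kilobase) and SREBF2 (21.7, 23.5, 26.2 and 26.1) in the range of FDPS and FDFT1. CYP51A1 is uncertain, because 79.4% of its annotated exon bases also belong to other genes on the same strand, and reads that several genes share are not counted. FDPS, HSD17B7, CYP51A1, SCD and FADS2 have named pseudogene copies (8, 2, 3, 1 and 1), and reads that align to several places are likewise left out.

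**Figure D1:**
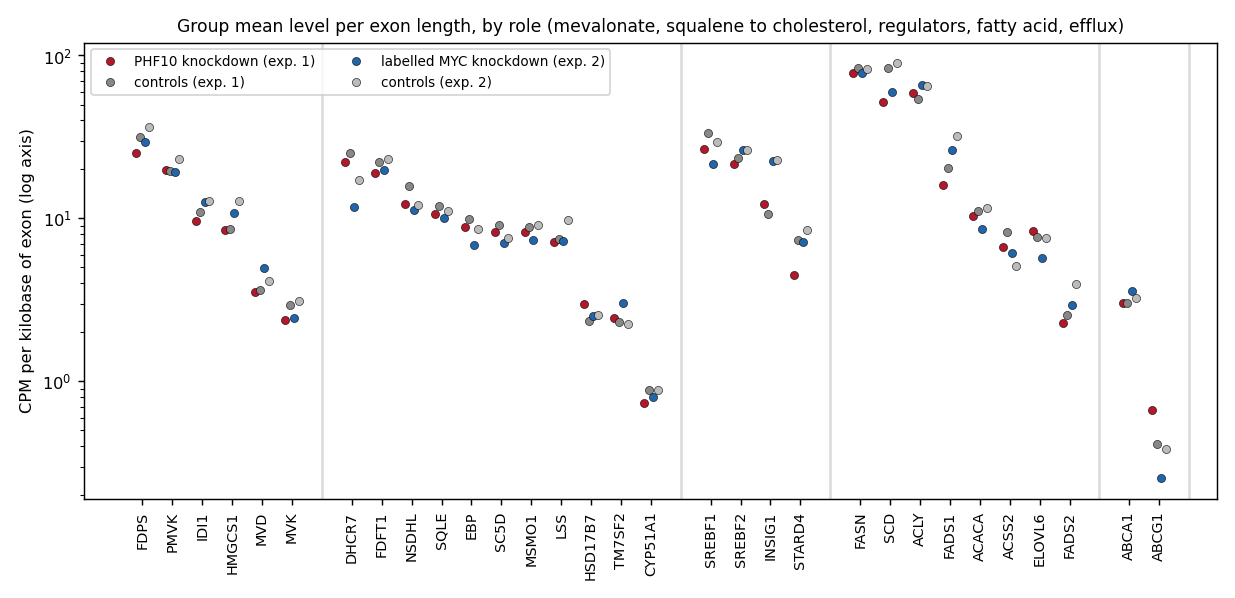
Group mean level of each of the 31 genes in CPM per kilobase of annotated exon (log axis), ordered within each role by the level in the controls of experiment 1; each gene has 4 points, in the order PHF10 knockdown, its controls, labelled MYC knockdown and its controls. FASN, SCD and ACLY lie highest, and ABCG1 and CYP51A1 are the only genes below 1 CPM per kilobase.

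After PHF10 knockdown 1 of the 31 genes fell, STARD4, and none rose. STARD4 encodes a small protein that carries cholesterol between membranes. Over all 18450 genes tested, 3.58% were called lower and 2.75% higher, so 1 of 31 lower (3.23%) is close to the background and 0 of 31 higher is not far from it. Without the correction, 3 genes had a p under 0.05 on the lower side (STARD4, SREBF1 and SCD) and 2 on the higher side (HSD17B7 and ABCG1). These are 9.68% and 6.45% of the 31, where 11.5% and 11.2% of all genes had such a p. The fitted log2 fold changes were negative for 23 genes and positive for 8, with a median of −0.14, beside 0.02 over all genes tested. Libraries of the 2 groups did not overlap for 3 genes on the higher side (HSD17B7, ELOVL6 and ABCG1) and 3 on the lower side (SREBF1, STARD4 and SCD), where 13.4% and 13.7% of all genes do so. By DESeq2 the counts were also 1 lower and 0 higher, where it called 6.84% of genes lower and 6.24% higher.

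STARD4 (ENSG00000164211; chromosome 5, 111496033 to 111512590, minus strand in GRCh38) measured 29.2, 26.2, 22.4 and 24.35 CPM in PHF10 knockdown libraries 1 to 4, against 49.2 and 34.0 CPM in their controls. All 4 knockdown libraries lay below both controls, which themselves differed by more than the knockdown libraries did. The log2 fold change was −0.70 (SE 0.16; 95% interval −1.07 to −0.34; edgeR quasi-likelihood test, Benjamini-Hochberg adjusted p = 0.0342). Leaving out any 1 of PHF10 knockdown libraries 2, 3 and 4 ended the call (adjusted p = 0.0537, 0.0585 and 0.0622), and without control 1 the log2 fold change was −0.42 (adjusted p = 0.254). The call was also lost when experiment 1 was fitted alone (−0.71; adjusted p = 0.137).

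Neither transcription factor gene of the pathway passed the threshold, but SREBF1 lay lower in every PHF10 knockdown library than in both controls. SREBF1 (ENSG00000072310; chromosome 17, 17810399 to 17837002, minus strand), whose products mainly drive fatty acid genes, measured 193.5, 177, 238 and 245 CPM in PHF10 knockdown libraries 1 to 4, against 274 and 266 CPM in their controls. Its log2 fold change was −0.34 (SE 0.15; adjusted p = 0.208). SREBF2 (ENSG00000198911; chromosome 22, 41833079 to 41907308, plus strand), the main driver of sterol genes, measured 168, 129, 169 and 190.4 CPM against 168.5 and 187 CPM in the controls, and its groups overlapped (log2 fold change −0.12, SE 0.15, adjusted p = 0.712). INSIG1 (ENSG00000186480; chromosome 7, 155297776 to 155310235, plus strand) measured 36.8, 28.1, 54.2 and 61.0 CPM in PHF10 knockdown libraries, against 37.4 and 40.8 CPM in their controls. INSIG1 was thus below both controls in libraries 1 and 2 and above both in libraries 3 and 4 (log2 fold change 0.20, SE 0.27, adjusted p = 0.713).

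**Figure D2:**
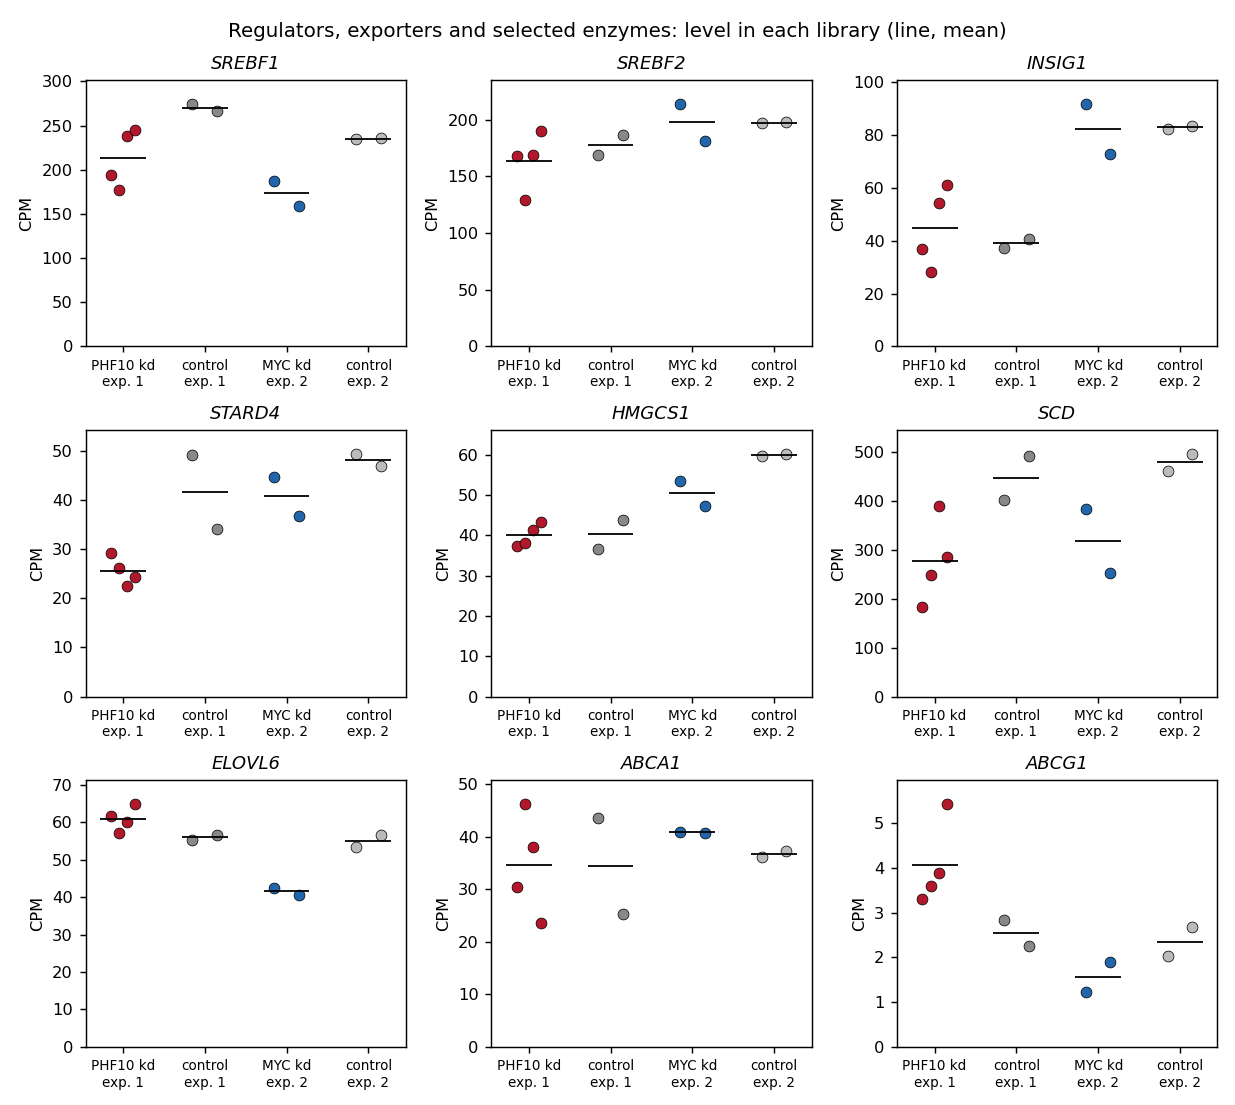
CPM of 9 of the genes in every library (points) with the group mean (line): PHF10 knockdown, n = 4, and its controls, n = 2; labelled MYC knockdown, n = 2, and its controls, n = 2; every axis starts at 0. STARD4 lies below both controls in all 4 PHF10 knockdown libraries, and HMGCS1 and INSIG1 are higher in both controls of experiment 2 than in both controls of experiment 1.

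None of the 6 mevalonate enzymes passed the threshold after PHF10 knockdown, and their median log2 fold change was −0.12. HMGCS1, which makes the precursor of mevalonate, measured 37.3, 38.1, 41.25 and 43.2 CPM in PHF10 knockdown libraries, against 36.6 and 43.9 CPM in their controls. Its log2 fold change was −0.011, with a 95% interval of −0.27 to 0.25. MVK, the mevalonate kinase, measured 10.5, 13.7, 21.1 and 16.4 CPM in knockdown libraries, against 16.9 and 21.3 CPM in controls (log2 fold change −0.30, SE 0.23, adjusted p = 0.484). PMVK, the next kinase, measured 20.9, 23.5, 29.9 and 27.3 CPM against 21.4 and 28.35 CPM (log2 fold change 0.030, SE 0.17, adjusted p = 0.942). In both kinases knockdown library 1 was the lowest of the 6 libraries and the groups overlapped. MVD, which decarboxylates mevalonate diphosphate, measured 12.9, 15.5, 19.5 and 18.4 CPM in knockdown libraries, against 15.8 and 18.5 CPM in controls (log2 fold change −0.049, SE 0.17, adjusted p = 0.904). FDPS measured 75.35, 73.1, 119 and 106 CPM in knockdown libraries, against 101 and 134 CPM in controls (log2 fold change −0.33, SE 0.21, adjusted p = 0.387). FDPS was lowest in knockdown libraries 1 and 2, and IDI1, the isomerase between MVD and FDPS, did the same, with 35.0 to 49.2 CPM in knockdown libraries and 45.6 to 49.35 CPM in controls.

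None of the 11 enzymes between squalene and cholesterol passed the threshold either, with 9 negative and 2 positive fitted changes and a median of −0.16. HSD17B7, a reductase that helps to strip methyl groups from the sterol ring, measured 13.3, 13.2, 14.4 and 16.1 CPM in PHF10 knockdown libraries, against 9.75 and 12.7 CPM in their controls. Its 4 knockdown libraries all lay above both controls, the nearest pair by under 1 CPM (log2 fold change 0.34, SE 0.15, adjusted p = 0.211). NSDHL, which acts on the same methyl groups, measured 18.9, 23.35, 29.4 and 25.8 CPM in knockdown libraries, against 27.3 and 36.25 CPM in controls (log2 fold change −0.38, SE 0.18, adjusted p = 0.242). LSS, which closes the ring to lanosterol, measured 39.1, 51.0, 62.9 and 54.0 CPM against 50.5 and 57.5 CPM (log2 fold change −0.061, SE 0.17, adjusted p = 0.874). DHCR7, the reductase of the last step, measured 77.8, 81.2, 101 and 109.5 CPM in knockdown libraries, against 93.6 and 115 CPM in controls (log2 fold change −0.18, SE 0.19, adjusted p = 0.632). NSDHL, LSS and DHCR7 overlapped between the groups. The other 7 genes, namely FDFT1, the epoxidase SQLE, CYP51A1, the reductase TM7SF2, the methyl oxidase MSMO1, the isomerase EBP and the desaturase SC5D, overlapped as well, with log2 fold changes between −0.27 and 0.075.

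Of the 8 fatty acid enzymes none passed the threshold, and SCD had the largest fitted change. SCD (ENSG00000099194; chromosome 10, 100347124 to 100364834, plus strand) measured 184, 248, 389 and 285 CPM in PHF10 knockdown libraries, against 403 and 493 CPM in their controls. Every knockdown library was below both controls, by a log2 fold change of −0.70 (SE 0.27; 95% interval −1.29 to −0.100; edgeR quasi-likelihood test, Benjamini-Hochberg adjusted p = 0.156). ELOVL6, which lengthens the product of FASN, measured 61.6, 57.2, 60.0 and 64.8 CPM in knockdown libraries, against 55.3 and 56.6 CPM in controls. All 4 of its knockdown values lay above the controls, by little (log2 fold change 0.12, SE 0.094, adjusted p = 0.485). FADS1, a desaturase of polyunsaturated fatty acids, measured 158, 126, 163.5 and 211 CPM against 187 and 227 CPM in controls (log2 fold change −0.33, SE 0.18, adjusted p = 0.325). ACSS2, which makes acetyl-CoA from acetate, measured 39.2, 25.1, 26.8 and 52.9 CPM in knockdown libraries, against 37.2 and 52.15 CPM in controls (log2 fold change −0.31, SE 0.28, adjusted p = 0.55). ACACA, the carboxylase that makes malonyl-CoA, measured 135, 106, 136 and 161 CPM against 127 and 162.5 CPM (log2 fold change −0.10, SE 0.17, adjusted p = 0.776). FADS1, ACSS2 and ACACA overlapped between the groups, as did ACLY, FASN and the desaturase FADS2, whose log2 fold changes were 0.12, −0.11 and −0.17. The median of the 8 was −0.14, and it turned to 0.03 without control 2.

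The exporters had unlike fitted changes, and the contrast between them was not tested. ABCG1 rested on few reads, 52 to 125 in a library of experiment 1. ABCG1 was counted at 3.31, 3.61, 3.89 and 5.425 CPM in PHF10 knockdown libraries, against 2.83 and 2.25 CPM in their controls, with no overlap between the groups (log2 fold change 0.68, SE 0.28, adjusted p = 0.194). ABCA1 measured 30.45, 46.2, 38.0 and 23.6 CPM in knockdown libraries, against 43.5 and 25.3 CPM in controls (log2 fold change 0.0087, SE 0.27, adjusted p = 0.991). The 2 controls of ABCA1 spanned most of the range of the 4 knockdown libraries, and neither exporter passed the threshold.

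**Figure D3:**
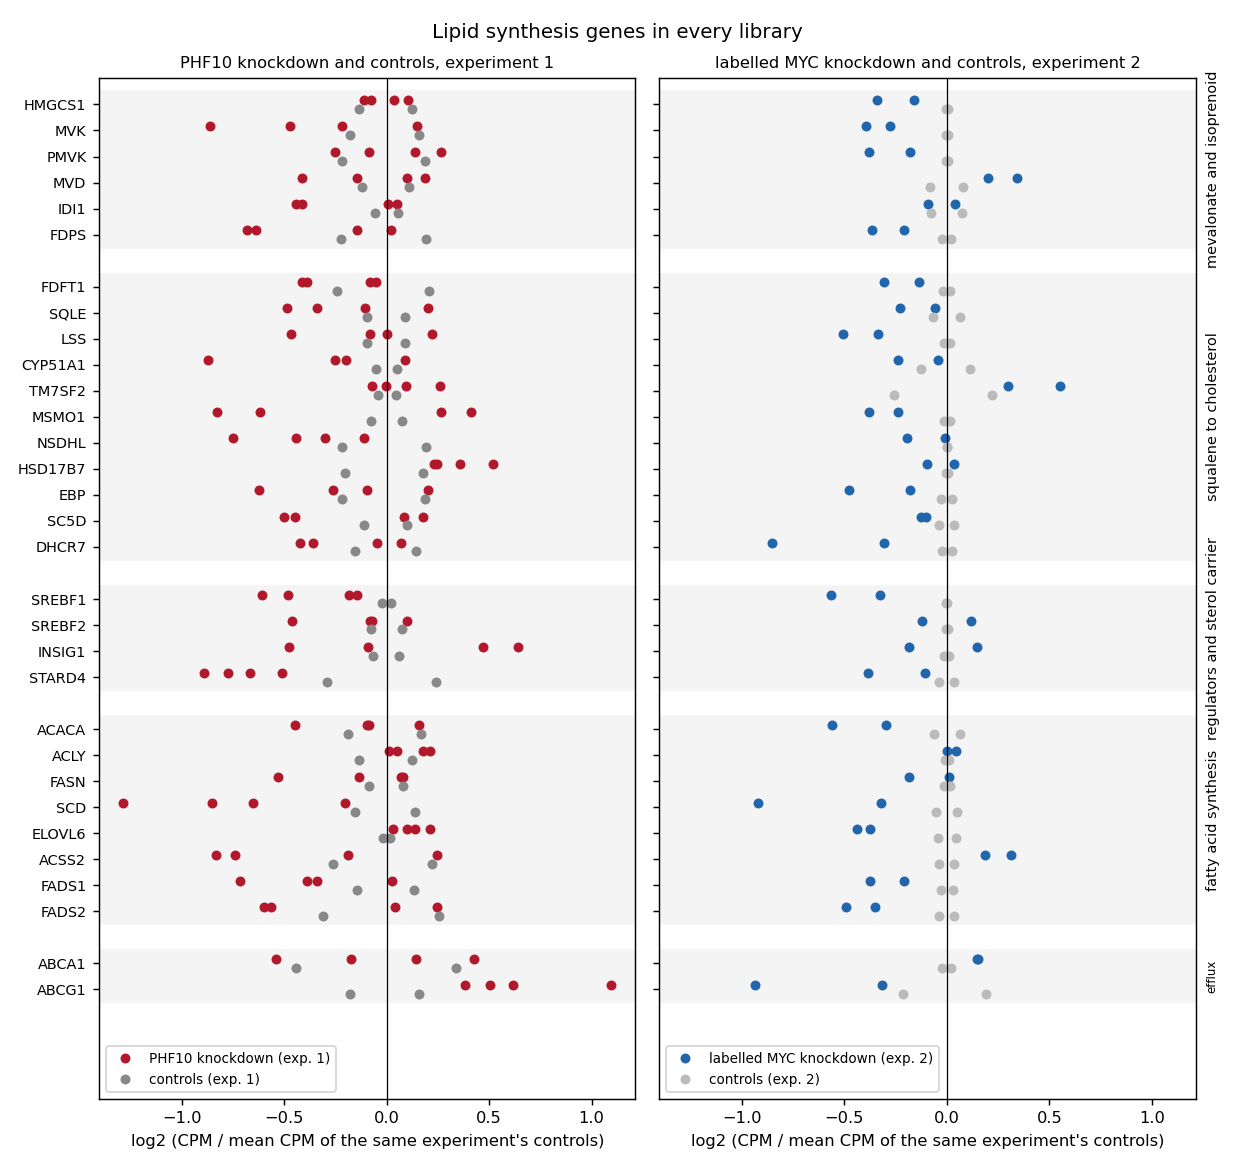
Each of the 31 genes in every library, as log2 of its CPM over the mean CPM of the same experiment's controls; the left panel holds PHF10 knockdown (n = 4) and its controls (n = 2), the right panel the libraries labelled MYC knockdown (n = 2) and their controls (n = 2). Points of experiment 1 scatter widely in both groups, while in experiment 2 the controls lie close together. There 19 of the 31 genes have both labelled libraries below both controls, where 36% of all genes do.

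The libraries of experiment 1 differed from each other over many of the 31 genes at once. PHF10 knockdown libraries 1 and 2 and control 1 were also the libraries with high interferon-stimulated genes: the mean log2 CPM of 16 such genes was 8.42, 8.08, 3.62 and 5.24 in PHF10 knockdown libraries 1 to 4 and 8.95 and 5.19 in controls 1 and 2, against 3.04 to 3.36 over the 4 libraries of experiment 2. The mean log2 CPM of the mevalonate genes was 4.68, 4.82, 5.24 and 5.14 in PHF10 knockdown libraries 1 to 4, and 4.98 and 5.27 in the controls. The 3 libraries of experiment 1 with the most interferon-stimulated RNA had the lowest of these means. The same 3 libraries also stood apart in their reads: 13.8%, 12.3% and 12.1% fell outside genes in PHF10 knockdown libraries 1 and 2 and control 1, against 9.93% to 10.6% in the other 3, and 4.98% to 5.42% aligned to several places, against 5.84% to 6.15%. Neither the part of interferon-stimulated RNA nor that of read composition in this order was tested. For the squalene to cholesterol genes the means were 4.63, 4.54, 4.68 and 4.91 in PHF10 knockdown libraries and 4.74 and 4.90 in controls, and library 3 lay below control 1 there. For the fatty acid genes they were 6.91, 6.71, 7.08 and 7.23 in PHF10 knockdown libraries and 7.03 and 7.34 in controls. There too the 3 libraries with high interferon-stimulated genes were the lowest of experiment 1, with control 1 close to PHF10 knockdown library 3. Counted gene by gene, 19 of the 31 (61.3%) were lower in control 1 than in control 2 and also lower in both of knockdown libraries 1 and 2 than in both of libraries 3 and 4, where 16.3% of all genes tested were. The opposite order in both groups held for 1 of the 31 (3.23%), against 15.9% of all genes. All 6 mevalonate genes had the first order. These counts come from an order noticed in the same libraries and are a description.

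**Figure D4:**
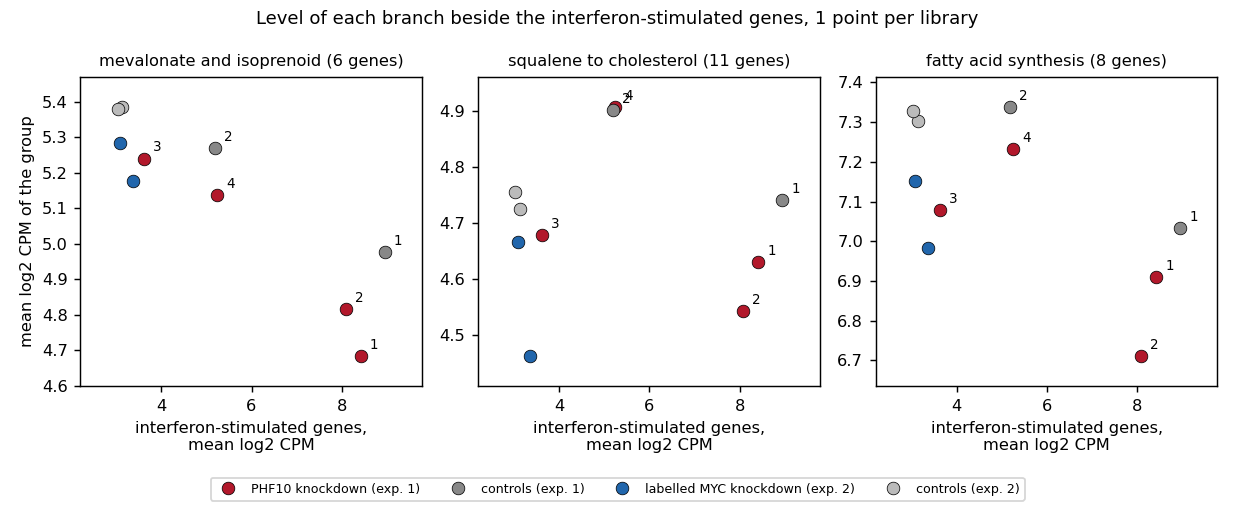
Mean log2 CPM of the mevalonate genes (6), the squalene to cholesterol genes (11) and the fatty acid genes (8), each against the mean log2 CPM of 16 interferon-stimulated genes, with 1 point per library; numbers are replicate numbers of experiment 1. In the mevalonate and fatty acid panels PHF10 knockdown libraries 1 and 2 and control 1 lie at the right and are the lowest of experiment 1. In all 3 panels the libraries labelled MYC knockdown lie below their controls.

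Comparing PHF10 knockdown libraries 1 and 2 with control 1, and libraries 3 and 4 with control 2, sets libraries on the same side of the interferon split against each other, with 1 control in each part. The levels within a part still differed, with interferon means of 3.62 in PHF10 knockdown library 3 and 5.19 in control 2. The median difference in log2 CPM over the 31 genes was −0.22 in the libraries with high interferon-stimulated genes and −0.11 in the others, and 20 of the 31 (64.5%) were lower in PHF10 knockdown in both, against 39.1% of all genes. With a term for those 3 libraries in the fit, 3 of the 31 genes were lower and none higher, where 7.56% of all genes were called lower and 5.82% higher; 3 of 31 is 9.68%, not far from that background. The 3 were STARD4 (−0.69), SCD (−0.73; adjusted p = 0.0491) and FDPS (−0.35; adjusted p = 0.0342). The split was seen in these same libraries, so that this fit is a description. With RNA from whole cultures, fewer cells that express a gene and less of its RNA per cell cannot be told apart.

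In the libraries labelled MYC knockdown none of the 31 genes passed the threshold in the joint fit, and most lay below their controls by a small step. Over all genes tested 0.282% were called higher and 0.211% lower, so a count of 0 is near what the background gives. By DESeq2 1 gene of 31 was lower (3.23%), ELOVL6, and none higher, where DESeq2 called 2.1% of genes lower and 2.06% higher. Without the correction 3 genes (9.68%) had a p under 0.05, all lower (DHCR7, SREBF1 and ELOVL6), where 6.58% of all genes had one on the lower side and 6.62% on the higher side. Fitted changes were negative for 25 genes and positive for 6, and their median was −0.24, beside −0.009 over all genes tested. Both labelled libraries lay below both controls for 19 of the 31 genes and above both for 4, where 36% and 33.6% of all genes do so.

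ELOVL6 (ENSG00000170522; chromosome 4, 110045846 to 110199199, minus strand) had the smallest p of the 31 in this comparison. It was at 42.4 and 40.6 CPM in the labelled libraries, against 53.4 and 56.7 CPM in the controls. The gap between the groups was larger than the gap within either, and the log2 fold change was −0.41 (SE 0.11; 95% interval −0.65 to −0.16; edgeR quasi-likelihood test, Benjamini-Hochberg adjusted p = 0.142). SREBF1 measured 187.5 and 159 CPM in the labelled libraries, against 235 and 236 CPM in the controls (log2 fold change −0.44, SE 0.17, adjusted p = 0.314). SREBF2 measured 214 and 181.5 CPM against 197 and 198 CPM, with the labelled libraries on either side of the controls (log2 fold change 0.0021, SE 0.18, adjusted p = 1). INSIG1 was placed likewise, with 91.75 and 72.9 CPM in the labelled libraries, against 82.2 and 83.55 CPM in the controls (log2 fold change −0.0087, SE 0.30, adjusted p = 0.997). STARD4 measured 44.7 and 36.8 CPM in the labelled libraries, against 49.35 and 46.9 CPM in the controls (log2 fold change −0.24, SE 0.19, adjusted p = 0.667).

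Among the mevalonate enzymes 4 of 6 lay below both controls in both labelled libraries, and MVD lay above. Of all genes tested, 36% lay below in this way and 33.6% above. HMGCS1 measured 53.6 and 47.4 CPM in the labelled libraries, against 59.8 and 60.2 CPM in the controls (log2 fold change −0.25, SE 0.13, adjusted p = 0.47). FDPS measured 116 and 104 CPM against 136 and 132 CPM in the controls (log2 fold change −0.29, SE 0.24, adjusted p = 0.69). MVK and PMVK followed the same order, with 16.6 and 15.3 CPM for MVK in the labelled libraries against 20.2 and 20.1 CPM in the controls, and 26.2 and 22.8 CPM for PMVK against 29.6 and 29.7 CPM. MVD measured 22.3 and 24.7 CPM in the labelled libraries, against 20.5 and 18.4 CPM in the controls (log2 fold change 0.27, SE 0.20, adjusted p = 0.62). IDI1 overlapped, at 52.2 to 57.1 CPM in the labelled libraries and 52.7 to 58.4 CPM in the controls.

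From squalene to cholesterol 7 of 11 genes lay below both controls in both labelled libraries, where 36% of all genes did. The median log2 fold change of the 11 was −0.14. DHCR7 measured 57.7 and 39.5 CPM in the labelled libraries, against 72.6 and 70.2 CPM in the controls. The labelled libraries differed from each other more than the controls did, and the log2 fold change was −0.55 (SE 0.22; adjusted p = 0.313). LSS measured 55.8 and 49.5 CPM in the labelled libraries, against 69.8 and 71.1 CPM in the controls (log2 fold change −0.42, SE 0.19, adjusted p = 0.393). NSDHL (24.0 and 21.15 CPM in the labelled libraries, against 24.2 and 24.2 CPM in the controls) and HSD17B7 (12.5 and 11.4 CPM against 12.2 and 12.2 CPM) differed little. TM7SF2 was the exception on the higher side, at 9.44 to 11.3 CPM in the labelled libraries and 6.42 to 8.96 CPM in the controls (log2 fold change 0.43, SE 0.20, adjusted p = 0.402). FDFT1, MSMO1, EBP and SC5D lay below without overlap, with log2 fold changes between −0.32 and −0.11, and SQLE and CYP51A1 overlapped.

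The fatty acid enzymes had the lowest median of the larger groups, −0.35, with 5 of 8 below both controls, beside 36% of all genes. SCD measured 383 and 253 CPM in the labelled libraries, against 462 and 496 CPM in the controls (log2 fold change −0.59, SE 0.32, adjusted p = 0.47). ACACA measured 123 and 102 CPM against 144 and 158 CPM in the controls (log2 fold change −0.42, SE 0.20, adjusted p = 0.401). FADS1 measured 285 and 254 CPM against 323 and 336 CPM in the controls (log2 fold change −0.29, SE 0.21, adjusted p = 0.631). In SCD the second labelled library lay far below the first, while in ACACA and FADS1 the libraries were closer. ACSS2 lay above, with 31.4 and 34.3 CPM in the labelled libraries, against 28.3 and 26.9 CPM in the controls (log2 fold change 0.25, SE 0.32, adjusted p = 0.819). FADS2 lay below (−0.42), and ACLY (0.022) and FASN (−0.083) overlapped. Of the exporters, ABCA1 measured 40.9 and 40.7 CPM in the labelled libraries, against 36.2 and 37.3 CPM in the controls (log2 fold change 0.15, SE 0.30, adjusted p = 0.893). ABCG1 measured 1.23 and 1.89 CPM against 2.03 and 2.68 CPM in the controls (log2 fold change −0.60, SE 0.33, adjusted p = 0.478), and so lay below where ABCA1 lay above. ABCG1 again rested on few reads, 46 and 55 in the labelled libraries and 71 and 85 in the controls.

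**Figure D5:**
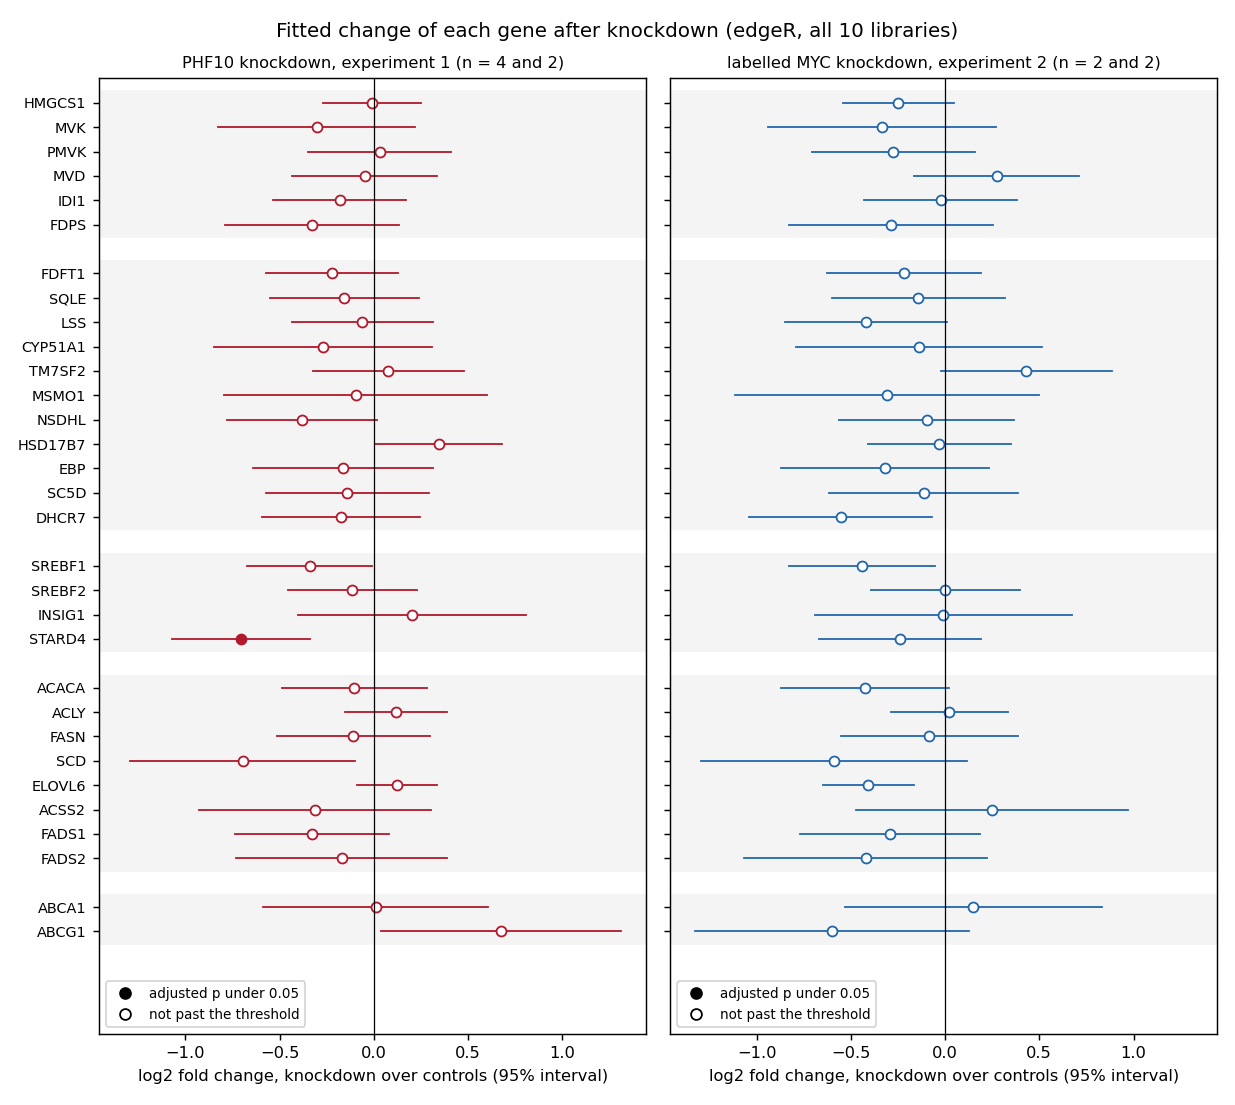
Fitted log2 fold change of each of the 31 genes with its 95% interval (edgeR, all 10 libraries), for PHF10 knockdown over its controls (left, n = 4 and 2) and labelled MYC knockdown over its controls (right, n = 2 and 2); filled points have an adjusted p under 0.05. STARD4 on the left is the only filled point, and 23 points on the left and 25 on the right lie below 0.

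The joint fit gives both experiments 1 estimate of the spread, far above that of experiment 2 by itself. Fitted alone, experiment 2 had 15 of the 31 genes lower (48.4%) and 4 higher (12.9%) in the libraries labelled MYC knockdown, where 22.6% of 17481 genes tested were called lower and 21.9% higher. The 15 had log2 fold changes between −0.60 and −0.20, and the median of the 31 was −0.22, beside 0.006 over all genes. They were HMGCS1, MVK, PMVK and FDPS of the mevalonate genes, FDFT1, LSS, MSMO1 and EBP of the later sterol genes, SREBF1, STARD4, ACACA, ELOVL6, FADS1, FADS2 and ABCG1. The 4 higher genes were MVD, TM7SF2, ACSS2 and ABCA1. LSS (−0.41; SE 0.05) and ELOVL6 (−0.39; SE 0.06) had the smallest adjusted p, 1.52e-08 and 6.36e-08. Leaving out each library of experiment 2 in turn gave 14 to 20 lower and 2 to 6 higher genes of the 31; each such fit has a group of 1 library, assumed to vary like the 2 of the other group, and so is no check of the spread. The fit of all 4 libraries takes its spread from 2 libraries a group that may be technical repeats, and its calls cover 7781 of the 17481 genes.

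The second labelled library held less of this RNA than the first. It lay below the first in 27 of the 31 genes (87.1%), by a median of 0.17 on the log2 scale, against 49.3% of all genes; between the controls the second lay below the first in 13 of 31. MYC mRNA was also lower in that library, 13.3 CPM in the second against 16.7 CPM in the first. Between controls 1 and 2 MYC mRNA differed more, 14.95 and 26.5 CPM, while the median difference of the 31 genes was 0.0097. The part of MYC in these orders was not tested.

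The difference between the knockdowns was tested as the PHF10 effect minus the labelled MYC effect. None of the 31 genes passed the threshold, where 0.385% of all genes did in either direction, and 2 had an unadjusted p under 0.05, both with the PHF10 effect above the MYC effect; that is 6.45%, beside 6.18% of all genes with such a p in that direction and 5.51% in the other. ELOVL6 had a log2 fold change of 0.12 in PHF10 knockdown and of −0.41 in labelled MYC knockdown, a difference of 0.53 (SE 0.14; 95% interval 0.21 to 0.85; edgeR quasi-likelihood test, Benjamini-Hochberg adjusted p = 0.154). DESeq2 called this difference (0.53; adjusted p = 0.0154), the only 1 of the 31 (3.23%), where it called 2.13% of genes in that direction and 1.59% in the other. ABCG1, on 46 to 125 reads in a library, had 0.68 and −0.60, a difference of 1.28 (SE 0.43, adjusted p = 0.262 by the edgeR test). STARD4 had −0.70 in PHF10 knockdown and −0.24 in labelled MYC knockdown, and its difference had a 95% interval of −1.03 to 0.10. SCD (−0.70 and −0.59) and SREBF1 (−0.34 and −0.44) were negative in both, with intervals of the difference of −1.03 to 0.83 and −0.41 to 0.61. These intervals are wide, so that like values in both knockdowns do not show a like response.

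The controls of the 2 experiments differed in 2 of the 31 genes, both higher in experiment 2, where 8.05% of all genes were called higher and 6.6% lower. With upper-quartile factors the share of higher calls over all genes was 37.8% in place of 55%, and the median of all genes moved to −0.13. HMGCS1 (ENSG00000112972; chromosome 5, 43289395 to 43313512, minus strand) measured 59.8 and 60.2 CPM in the controls of experiment 2, against 36.6 and 43.9 CPM in those of experiment 1 (log2 fold change 0.57, SE 0.13, 95% interval 0.28 to 0.87, edgeR quasi-likelihood test, Benjamini-Hochberg adjusted p = 0.0209). INSIG1 measured 82.2 and 83.55 CPM in the controls of experiment 2, against 37.4 and 40.8 CPM in those of experiment 1 (log2 fold change 1.08, SE 0.31, adjusted p = 0.0451). By the same test INSIG1 was not called with upper-quartile factors (0.97, adjusted p = 0.061) or with a term for high interferon-stimulated genes (0.77, adjusted p = 0.0515). HMGCS1 was not called with replicate numbers as blocks (0.695, adjusted p = 0.0523). Both genes were separated without overlap, but they were not alone in this. Of the 31 genes, 9 lay above and 5 below without overlap, and the share over all genes was not counted. INSIG1 lost its call without any 1 of the 4 libraries (log2 fold change 1.03 to 1.16). HMGCS1 lost it without control 1 of experiment 1 (0.458) or either control of experiment 2 (0.586 and 0.582). FADS1 was close behind, with 323 and 336 CPM in the controls of experiment 2, against 187 and 227 CPM in those of experiment 1 (log2 fold change 0.67, SE 0.21, adjusted p = 0.0649). On the lower side DHCR7 had a log2 fold change of −0.55 and ACSS2 one of −0.69 (adjusted p = 0.123 and 0.182). What else differed between the experiments cannot be told apart from this difference, and the same controls serve the knockdown comparisons.

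Other genes of sterol and fatty acid handling were read from 2 further lists, of which 17 of 19 sterol genes and 22 of 22 fatty acid genes were tested. After PHF10 knockdown 1 of the 17 sterol genes rose and 2 fell, with a list median of 0.027, and none of the 22 fatty acid genes passed the threshold, beside 2.75% of all genes higher and 3.58% lower. NPC1, which lets cholesterol out of lysosomes, measured 169, 162, 147.5 and 155 CPM in PHF10 knockdown libraries, against 114.5 and 88.1 CPM in the control libraries (log2 fold change 0.65, SE 0.12, adjusted p = 0.017). TMEM97, a membrane protein that binds NPC1, measured 25.1, 17.3, 29.65 and 33.0 CPM in knockdown libraries, against 49.5 and 50.9 CPM in controls (log2 fold change −0.93, SE 0.21, adjusted p = 0.0284). MYLIP, a ubiquitin ligase for lipoprotein receptors, measured 19.2, 15.0, 16.4 and 20.9 CPM in knockdown libraries, against 30.05 and 29.25 CPM in controls (log2 fold change −0.73, SE 0.14, adjusted p = 0.0161). For these 3 genes the knockdown libraries and the controls did not overlap. In the libraries labelled MYC knockdown none of the 17 or the 22 passed the threshold. Between the controls 1 sterol gene was higher and 3 were lower in experiment 2, and 3 fatty acid genes were higher, beside 8.05% of all genes higher and 6.6% lower. The clearest were ACSL1, which activates long-chain fatty acids (log2 fold change 1.20, SE 0.15, adjusted p = 0.00165), MYLIP (log2 fold change −1.06, SE 0.17, adjusted p = 0.00369) and the elongase ELOVL7 (log2 fold change 1.32, SE 0.25, adjusted p = 0.0085), followed by MID1IP1, a partner of ACACA (0.65), SCAP, the escort of the SREBF products (−0.50), and NPC1 (0.53). The remaining one, NR1H3, which encodes a liver X receptor (−0.87), is named after its value was seen.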

How the data were processed

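The deposited values are raw read counts per gene made by the authors with STAR after trimming with cutadapt, on the GRCh38.p13 (hg38) genome; this is per the submitters' processing notes. Their versions and the gene annotation were not given in the sources used here. A directional kit was used, per the labels' protocols, so the opposite-strand column was taken: the same-strand column held 5.26% to 5.55% of stranded gene reads. Lines that name no gene (unaligned, multiply aligned, outside or shared between genes) made up 19.1% to 23.6% of a library and were kept out of library sizes. Total reads were 26.1 to 47.6 M per library.

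The fit used edgeR 4.0.16 in R 4.3.3 (quasi-likelihood, robust, TMM factors, filterByExpr by group) with all 10 libraries as 4 group means and 6 residual degrees of freedom. Adjusted p-values are Benjamini-Hochberg over all 18450 genes tested, with a threshold of 0.05. CPM uses TMM-scaled library sizes, and log2 CPM a prior count of 2. The steps were tested on simulated counts with the same spread in all libraries, so that test did not cover the unequal spread of the experiments. Alternatives were DESeq2 1.42.0, limma-voom (limma 3.58.1), RLE and upper-quartile factors, no filter, at least 1 CPM in 4 libraries, unstranded counts, each experiment alone, a replicate block, a term for high interferon-stimulated genes, and each library left out. Fits of experiment 2 alone with 1 library left out were chosen after seeing the data.

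The members and all gene lists were chosen with earlier results of these data known. Values in every library are given for the regulators, the exporters, members past the threshold in a comparison, and the 2 smallest p of each role and comparison; the rest are given as ranges. Other pathway genes are named where past the threshold, at most 6 a comparison. The promoters shown were picked after the values were seen. Coordinates and exon lengths are from GENCODE 29 (GRCh38).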

Additional observations from a re-analysis of the deposited data

How the results depend on the processing

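Groups of 2 libraries and the unequal spread of the experiments limit the precision, and the part of depth was not tested. Where leaving out a library leaves 1 in a group, that one is assumed to vary like the other groups. After PHF10 knockdown the number of the 31 genes lower was 1, against 2 with no filter (STARD4 and SCD), 3 with the interferon term, 0 with experiment 1 alone, and 0 to 1 with a library left out; without PHF10 knockdown library 3 the 1 gene was SCD (adjusted p = 0.0494), not STARD4. None was higher under any of these alternatives. In the libraries labelled MYC knockdown it was 0 higher and 0 lower, against 1 lower with DESeq2 and 4 higher and 15 lower with experiment 2 alone, where leaving out a library gave 2 to 6 higher and 14 to 20 lower. For the difference of the effects it was 0, against 1 higher with DESeq2. Between the controls it was 2 higher and 0 lower, against 1 higher with upper-quartile factors, 4 higher and 1 lower with no filter, 1 higher and 2 lower with the interferon term, and 0 to 1 higher with a library left out. In experiment 2 alone SREBF2 and INSIG1 were at 0.015 and 0.0080 with all 4 libraries, at −0.11 and −0.175 without the first labelled library and at 0.13 and 0.16 without the second (0.0021 and −0.0087 in the joint fit); the labelled libraries lie on either side of the controls. The median of the fatty acid genes after PHF10 knockdown was −0.36 without control 1, and 0.03 without control 2, against −0.14.

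Over all genes, PHF10 knockdown had 1169 past the threshold, against 2372 with no filter, 2180 with DESeq2, 2467 with the interferon term, 50 with experiment 1 alone, and 214 to 1387 with a library left out (214 and 219 without control 1 and control 2). The libraries labelled MYC knockdown had 91, against 911 with no filter, 722 with DESeq2, 208 with limma-voom, 558 with the interferon term, 7781 with experiment 2 alone (5818, 5995, 7063 and 7543 with a library left out), and 0 with any 1 of its 4 libraries left out of the joint fit. The difference had 71, against 918, 633 and 489 with no filter, DESeq2 and the interferon term, and 1 to 140 with a library left out. The controls had 2702, against 554 to 1369 with a library left out.

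Replicate numbers were not used as pairs in the main fit. Deviations of same-numbered libraries from their group means correlated with r of 0.48 and −0.30 in experiment 1 and −0.031 in experiment 2. In a group of 2 libraries these deviations mirror each other, so the values cannot decide whether the numbers pair the libraries. Under a replicate block the 31 genes had 0 lower after PHF10 knockdown (STARD4 −0.57; adjusted p = 0.0879) and 1 higher between the controls, the fatty acid median after PHF10 knockdown was −0.38, and over all genes 0 passed for labelled MYC knockdown, 1 for the difference and 1424 for the controls.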
